A study of Saccharomyces cerevisiae with 21 samples.

Results

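Loss of Ndt80 in budding yeast cells that keep Tel1 was examined here by comparing maps of Spo11 breaks from *sae2*Δ and *sae2*Δ *ndt80*Δ cells, both taken 6 h after the shift to sporulation medium. These were chosen by genotype label as 10 of the 21 libraries of the series, 6 of *sae2*Δ and 4 of *sae2*Δ *ndt80*Δ. Libraries 7B and 7C of *sae2*Δ were summed, which left 5 replicates of *sae2*Δ, numbered 1, 2, 3, 5 and 7, and 4 of *sae2*Δ *ndt80*Δ, numbered 1 to 4. Both strains were SK1 diploids that carried *sae2*∆::KanMX6 and *nuc1::LEU2*, the auxotrophic alleles *ura3*, *lys2* and *arg4-nsp*, the inserts *his4X::LEU2* and *leu2::hisG*, and *ho::LYS2*, and strain MJ962 (*sae2*Δ *ndt80*Δ) differed from strain MJ315 (*sae2*Δ) by *ndt80*∆::LEU2. Each genotype was therefore 1 strain, and the labels do not say which libraries came from separate cultures, so p-values measure the spread between these libraries. A library of *sae2*Δ *ndt80*Δ *spo11-Y135F*, whose Spo11 cannot cut DNA, served as the background.

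During meiosis Spo11 cuts both strands of the DNA and stays covalently bound to the 5′ end on each side of the break. Most breaks fall in hotspots, short stretches that often coincide with the nucleosome-poor promoters of genes. Sae2 is needed to release Spo11 from the ends, so in *sae2*Δ cells the breaks persist uncleared with Spo11 attached. Ndt80 is the transcription factor that ends meiotic prophase, so that *ndt80*Δ cells arrest late in prophase. Tel1, the yeast relative of ATM, is a kinase that restrains further cutting near a break. In CC-seq the protein-linked 5′ ends are enriched, the protein remnant is removed and the ends are sequenced, which places each end on the Watson or Crick strand at base resolution. The comparison asks what Ndt80 loss does by 6 h to where Spo11 cuts, down to the shape of single hotspots. The paper reports that *sae2*Δ alone already delays the first meiotic division. How much longer *ndt80*Δ cells had spent in prophase by 6 h was not tested.

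The 9 replicates held 3217566 to 8634134 nuclear reads outside the ribosomal DNA. As a check of the labels, the inner part of *NDT80* (chromosome VIII 356749-357503) had 20 to 78 reads per library where the gene was present and at most 1 where it was deleted. *TEL1* had reads in every one of the 10 libraries. Hotspots were called as the union of those in the 2 genotype averages, which gave 3301 hotspots with a median length of 199 bp. Replicates 3 and 4 of *sae2*Δ *ndt80*Δ came from a time-course series and no *sae2*Δ library did, so library series and genotype are partly confounded, and values without those 2 libraries are given beside each count. Replicate 4 of *sae2*Δ *ndt80*Δ stood apart from the rest at base resolution. After thinning to equal depth it used 19.6% of the hotspot positions, against 27.8% to 30.8% in *sae2*Δ and 22.0% to 28.2% in the other 3 *sae2*Δ *ndt80*Δ replicates. The most used 1% of positions took 50.2% of its hotspot reads, against 37.6% to 39.8% in *sae2*Δ.

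The shape of hotspots changed little on average upon Ndt80 loss, and the *sae2*Δ *ndt80*Δ replicates differed more from each other than the *sae2*Δ replicates did. Hotspot width was measured as the distance that holds the reads between the 10% and 90% points, in 2424 hotspots with a mean of at least 200 reads. The median width was 123, 122, 121, 118 and 122 bp in *sae2*Δ replicates 1, 2, 3, 5 and 7. It was 139, 125 and 122 bp in *sae2*Δ *ndt80*Δ replicates 1, 2 and 4, with replicate 3 at 1 bp above replicate 2, so that 3 of the 4 lay above every *sae2*Δ value. The means were 121 ± 1.92 bp (SD, n = 5) and 128 ± 7.53 bp (SD, n = 4), and the difference of 6.8 bp did not pass the two-sided exact permutation test after adjustment over 9 values (p = 0.0317, adjusted p = 0.143). Without *sae2*Δ *ndt80*Δ replicate 1 it was 3.13 bp. Without the 2 time-course libraries it was larger, as replicates 1 and 2, at 139 and 125 bp, both lay above every *sae2*Δ value. Over the same hotspots the *spo11-Y135F* library had a median width of 186 bp. Reads that fall between hotspots ranked the *sae2*Δ *ndt80*Δ replicates as the width did: in 49 long genes they came to 51.6, 12.3, 44.3 and 5.43 RPM per kb (RPM, reads on the per-million scale of nuclear reads outside the ribosomal DNA) in *sae2*Δ *ndt80*Δ replicates 1 to 4, against 9.87 to 21.3 in *sae2*Δ and 73.0 in the *spo11-Y135F* library. Their part in the width was not tested by a fit, and after subtracting them the SD of read positions was 49.3, 47.6, 45.9 and 46.8 bp in *sae2*Δ *ndt80*Δ and 44.4 to 46.6 bp in *sae2*Δ.

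**Figure D1:**
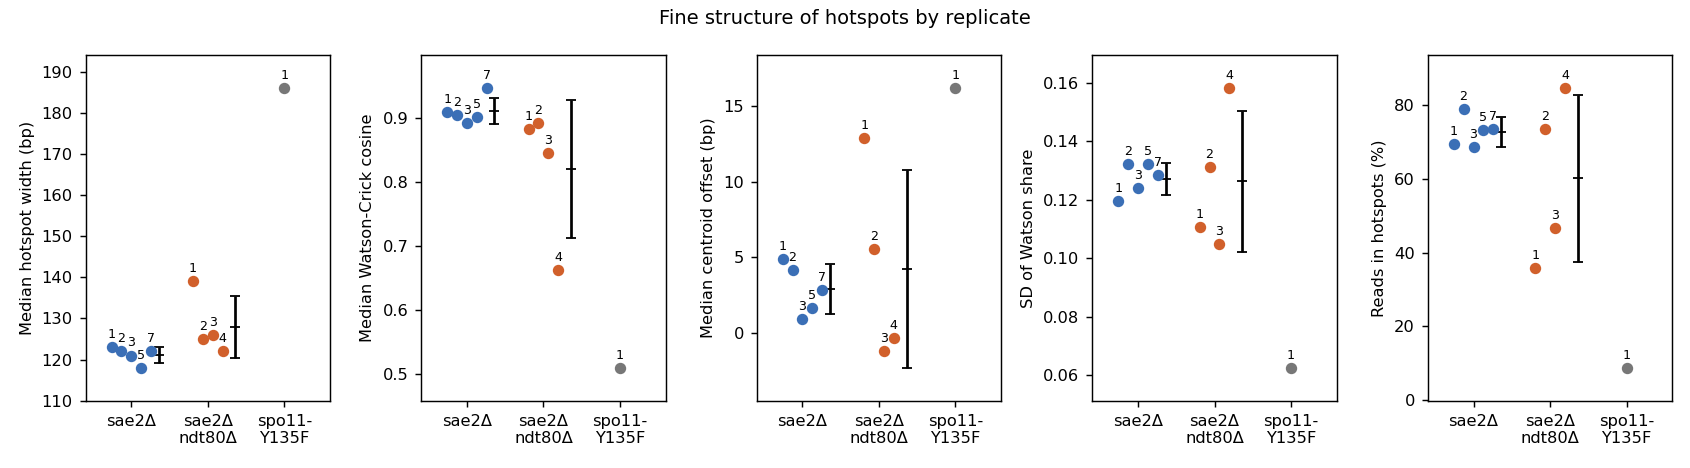
Each panel plots 1 measure of hotspot fine structure (y axis) for every replicate, numbered, of *sae2*Δ (blue), *sae2*Δ *ndt80*Δ (orange) and the single *spo11-Y135F* library (grey), and the black bars show the mean ± SD of a group. The 5 *sae2*Δ replicates lie closer together than the 4 *sae2*Δ *ndt80*Δ replicates in every panel, and reads in hotspots run from 35.8% to 84.7% in the latter.

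The Watson and Crick ends of a single Spo11 break lie on opposite strands with a short 5′ overhang, so the Crick end is found at a fixed distance from its Watson partner. In every *sae2*Δ and *sae2*Δ *ndt80*Δ replicate the product of the Watson count at one base and the Crick count at another peaked where the Crick base lay 1 bp to the right. The peak was 6.92 to 7.87 times the mean over offsets of -60 to 60 bp in *sae2*Δ. It was 5.14, 8.25, 7.41 and 11.6 times in *sae2*Δ *ndt80*Δ replicates 1 to 4, so the 2 genotypes overlapped. The *spo11-Y135F* library peaked at 3 bp instead, at 2.38 times, with 1.19 times at 1 bp. Replicate 4 of *sae2*Δ *ndt80*Δ also held 2.08, 2.40 and 2.04 times the mean at 3, 5 and 7 bp, whereas at 3 bp the other 8 replicates held 0.98 to 1.1 times.

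**Figure D2:**
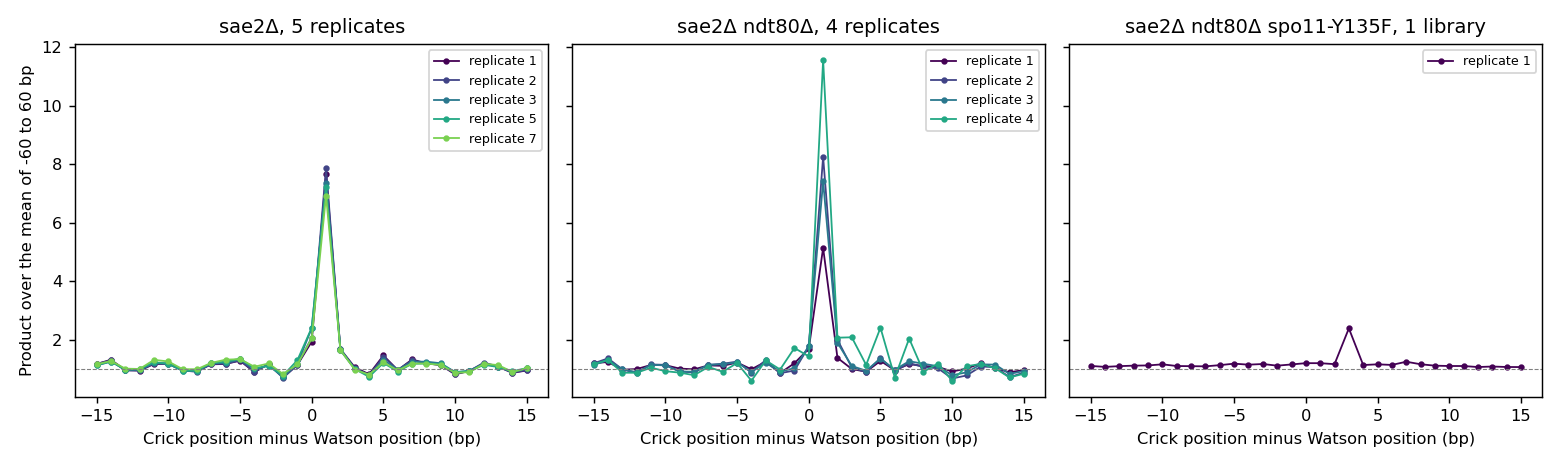
The product of Watson and Crick counts over 2424 hotspots (y axis, relative to its mean over -60 to 60 bp) is plotted against the distance from the Watson to the Crick base in bp (x axis), with 1 line per replicate and the dashed line at 1. All replicates of both genotypes peak at 1 bp, the *spo11-Y135F* library peaks at 3 bp, and replicate 4 of *sae2*Δ *ndt80*Δ has further maxima at 3, 5 and 7 bp.

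The likeness of the Watson profile to the Crick profile shifted by that 1 bp, given as a cosine that is 1 when they match, was lower in *sae2*Δ *ndt80*Δ. The median over hotspots was 0.909, 0.905, 0.892, 0.902 and 0.946 in *sae2*Δ replicates 1, 2, 3, 5 and 7. It was 0.883, 0.891, 0.845 and 0.662 in *sae2*Δ *ndt80*Δ replicates 1 to 4. The groups did not overlap, although the highest *sae2*Δ *ndt80*Δ value, 0.8914, lay just under the lowest *sae2*Δ value, 0.8919. The two-sided exact permutation p was 0.00794, the smallest that 5 against 4 replicates allow, and the adjusted p over 9 values was 0.0714, so the difference of -0.090 did not pass. The 2 time-course libraries held the 2 lowest values, and the difference was -0.0375 without replicate 4 and -0.0234 without both.

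The base-level pattern of cutting inside hotspots was highly repeatable within *sae2*Δ. The median cosine of the profiles of 2 replicates, over both strands, was 0.966 to 0.995 in the 10 pairs within *sae2*Δ. It was 0.897 to 0.955 in the 3 pairs of *sae2*Δ *ndt80*Δ replicates 1 to 3, and 0.873 to 0.976 in the 15 pairs of these with *sae2*Δ. Pairs that held replicate 4 reached 0.736 to 0.745 within *sae2*Δ *ndt80*Δ and 0.641 to 0.734 with *sae2*Δ. Replicates 1 to 3 were thus about as like *sae2*Δ as they were like each other, as a description over pairs that share libraries.

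Watson and Crick reads were close to balanced over the genome in all replicates, at 50.3% to 50.5% Watson in *sae2*Δ and 50.1% to 50.3% in *sae2*Δ *ndt80*Δ. Single hotspots departed from balance in both genotypes. The SD over hotspots of the Watson share, freed of counting noise, was 0.119, 0.132, 0.124, 0.132 and 0.128 in *sae2*Δ replicates 1, 2, 3, 5 and 7, and 0.111, 0.131, 0.105 and 0.158 in *sae2*Δ *ndt80*Δ replicates 1 to 4. The *sae2*Δ values lay within the range of the *sae2*Δ *ndt80*Δ values (difference -0.00096, exact permutation p = 0.944, adjusted p = 0.944). It was 0.0625 in the *spo11-Y135F* library. The Watson share of a hotspot recurred between replicates, with a Pearson correlation over hotspots of 0.911 to 0.966 in pairs within *sae2*Δ and 0.737 to 0.936 in pairs between the genotypes.

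Of 3300 hotspots 2 (0.0606%) were called for a change in strand balance by the quasi-likelihood test of edgeR (Benjamini-Hochberg adjusted), 1 in each direction (0.0303% each). At an unadjusted p under 0.05 there were 483, of which 245 had a higher and 238 a lower Watson to Crick ratio. Inside YDR109C, on chromosome IV 674631-674876, Watson reads made up 19.2%, 18.1%, 19.5%, 16.9% and 22.0% in *sae2*Δ, against 35.5%, 27.6%, 30.5% and 33.3% in *sae2*Δ *ndt80*Δ. The groups did not overlap, and the Watson to Crick ratio rose by 0.98 on the log2 scale (SE 0.16, adjusted p = 0.0447). The other lay between EPT1, an enzyme of phospholipid synthesis, and NDT80, on chromosome VIII 356239-356428, directly beside the gene deleted in the *sae2*Δ *ndt80*Δ strain. Its Watson share was 57.9%, 54.6%, 54.2%, 53.7% and 53.9% in *sae2*Δ, against 35.0%, 34.6%, 39.9% and 23.5% in *sae2*Δ *ndt80*Δ, and the ratio fell by 1.28 on the log2 scale (SE 0.19, adjusted p = 0.0370). The call between EPT1 and NDT80 therefore sits at the border of the changed locus, and the part of the deletion itself was not tested. The next hotspots by p, which did not pass, lay inside EST1, a telomerase subunit, with a difference of 0.62 (adjusted p = 0.172), and between KTR2 and TFA2, with -0.71 (adjusted p = 0.084). Without the 2 time-course libraries 5 hotspots were called, and leaving out single replicates gave 0 to 7, with 0 when any 1 *sae2*Δ replicate was dropped, and 0, 1, 1 and 7 when *sae2*Δ *ndt80*Δ replicates 1 to 4 were.

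Watson reads lay on average to the right of Crick reads in long hotspots of both genotypes. The centroid offset, the mean Watson position minus the mean Crick position after background subtraction, had a median over well-covered hotspots of 4.91, 4.15, 0.940, 1.65 and 2.84 bp in *sae2*Δ replicates 1, 2, 3, 5 and 7. In *sae2*Δ *ndt80*Δ it was 12.9, 5.56, -1.22 and -0.362 bp in replicates 1 to 4, and the genotypes did not differ beyond this spread (difference 1.32 bp, exact permutation p = 0.754, adjusted p = 0.944). The sign of that difference rested on *sae2*Δ *ndt80*Δ replicate 1, without which it was -1.57 bp, and without the 2 time-course libraries it was 6.33 bp. The *spo11-Y135F* library had a median of 16.2 bp.

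The offset depended on hotspot length, and the lengths separated the replicates in different ways, in a split chosen after the values were seen and given with no test. In the 624 hotspots of 400 bp or longer the median offset was 18.6, 16.7, 5.09, 8.45 and 12.9 bp in *sae2*Δ. It was 40.7, 26.1, 14.7 and 27.4 bp in *sae2*Δ *ndt80*Δ, so that 3 of 4 replicates lay above all of *sae2*Δ and replicate 3 within it. In the 776 well-covered hotspots under 200 bp it was -0.404 to 0.898 bp in *sae2*Δ and 5.00, 0.741, -4.08 and -4.42 bp in *sae2*Δ *ndt80*Δ, where the 2 time-course libraries lay below zero. By position, the median offset in *sae2*Δ was 3.92 to 7.70 bp at hotspots between divergent genes, whose promoters face each other, and -2.40 to 1.79 bp between tandem genes. The corresponding ranges in *sae2*Δ *ndt80*Δ were 1.80 to 17.2 bp and -4.84 to 8.52 bp.

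**Figure D3:**
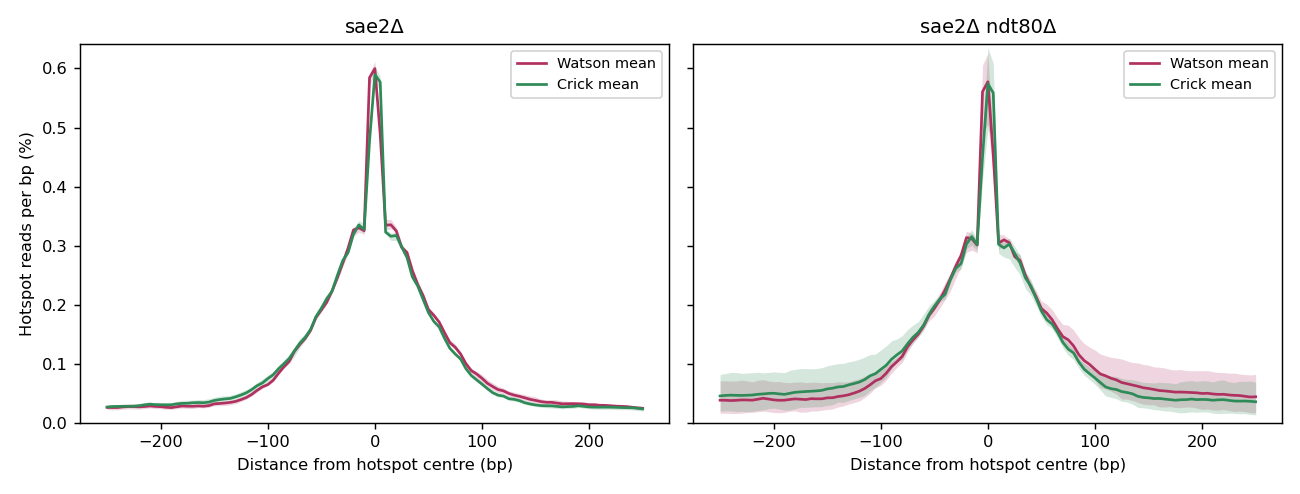
Mean Watson and Crick reads per bp (y axis, percent of a hotspot's reads, smoothed over 11 bp) are plotted against the distance from the hotspot centre in bp (x axis) for the 5 *sae2*Δ and the 4 *sae2*Δ *ndt80*Δ replicates, with shading from the lowest to the highest replicate. The spike at 0 follows from centring each hotspot on the base that holds its median read. Watson lies above Crick on the right flank and below it on the left in both genotypes, and the replicates spread more in *sae2*Δ *ndt80*Δ.

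At single hotspots, 9 of 2330 (0.386%) had a larger offset in *sae2*Δ *ndt80*Δ and none a smaller one (limma with a mean-variance trend, Benjamini-Hochberg adjustment; at unadjusted p under 0.05 there were 356 in all). All 9 were between 422 and 808 bp long, 6 lay between divergent genes, and their differences ran from 33.2 to 74.3 bp. Of all 2330 hotspots tested, 621 were 400 bp or longer and 1014 lay between divergent genes. The largest lay between ATG19, a receptor of selective autophagy, and IRA2, an inhibitor of Ras, on chromosome XV 170087-170894. Its offset was 15, 13.1, -0.66, 0.94 and 13.7 bp in *sae2*Δ, against 86.5, 47.2, 74.5 and 123 bp in *sae2*Δ *ndt80*Δ, a difference of 74.3 bp (SE 12.8, adjusted p = 0.0426). Every *sae2*Δ *ndt80*Δ replicate lay above the highest *sae2*Δ replicate. Between YNL115C and RPC19, a subunit shared by RNA polymerases I and III, on chromosome XIV 412132-412748, the offset turned from -14.5, -28.4, -16.1, -45.4 and -2.29 bp to 29.2, 71.8, 20.3 and 51.2 bp (difference 64.5 bp, SE 11.3, adjusted p = 0.0430). The Crick reads thus lay to the right of the Watson reads in all *sae2*Δ replicates and to the left in all *sae2*Δ *ndt80*Δ replicates. Inside NBL1, a subunit of the chromosomal passenger complex, on chromosome VIII 498512-499021, it went from 25.1, 41.1, 5.26, 27.4 and 28.8 bp to 96.9, 76.0, 100.3 and 78.4 bp (difference 62.4 bp, SE 9.11, adjusted p = 0.0317). The smaller offset with the lowest p, between RPC82 and QCR2 on chromosome XVI, did not pass (-33.9 bp, adjusted p = 0.0683). Leaving out single replicates gave 0 to 64 calls. Dropping *sae2*Δ replicate 1 left 3 and dropping 2, 3, 5 or 7 left 0, while dropping *sae2*Δ *ndt80*Δ replicates 1 to 4 gave 1, 16, 64 and 3. Without both time-course libraries 98 were called, 8 of the 9 among them.

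Widening was found at 15 of 2424 hotspots (0.619%) and narrowing at none, by limma on log2 width (418 had an unadjusted p under 0.05, in either direction). Of the 15, 8 lay between tandem genes, 6 between divergent genes and 1 inside YIL012W, and the log2 differences ran from 0.18 to 1.07. These counts are near the make-up of all 2424 hotspots tested, of which 1139 lay between tandem genes, 1025 between divergent genes and 174 inside a gene. The clearest lay between the divergent genes ANB1, a form of the translation factor eIF5A made when oxygen is low, and CYC1, which encodes cytochrome c, on chromosome X 525674-526267. Its width was 180, 180, 179, 180 and 178 bp in *sae2*Δ, against 307, 283, 292 and 312 bp in *sae2*Δ *ndt80*Δ, a log2 difference of 0.73 (SE 0.03, adjusted p = 6.42e-06). Cut into 3 equal parts, the hotspot held a smaller share of its reads in the middle part in every *sae2*Δ *ndt80*Δ replicate (36.3% to 62.8%, against 66.3% to 69.2% in *sae2*Δ). The part towards ANB1 held a larger share in each of them (10.0% to 13.2% against 7.44% to 8.49%). The 10% point that bounds the width thus lay in the middle part in *sae2*Δ and in the part towards ANB1 in *sae2*Δ *ndt80*Δ. A small change in share moved that bound from one part to another, so the width difference does not measure how many reads moved. The part towards CYC1 overlapped between genotypes, at 24.6% ± 1.27 (SD, n = 5) and 35.0% ± 12.5 (SD, n = 4), with the highest value, 52.8%, in replicate 4. The difference in strength at this hotspot did not pass (log2 ratio -0.16, SE 0.31, adjusted p = 0.889).

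Between SLU7, a splicing factor, and VTC5, a protein of the vacuole membrane, on chromosome IV 621323-621968, the width was 154, 178, 197, 122 and 181 bp in *sae2*Δ, against 351, 264, 372 and 412 bp in *sae2*Δ *ndt80*Δ. The log2 difference of 1.07 (SE 0.16, adjusted p = 0.0374) was the largest of the 15, and the left of 3 equal parts held 4.69% to 8.04% of the reads in *sae2*Δ and 8.46% to 16.6% in *sae2*Δ *ndt80*Δ. Upstream of SET4, beside IME2, the kinase that drives entry into meiosis, on chromosome X 223995-224157, the width was 70, 70, 58, 58 and 67 bp in *sae2*Δ, against 109, 99, 128 and 96 bp in *sae2*Δ *ndt80*Δ (log2 difference 0.74, SE 0.10, adjusted p = 0.0297) in a hotspot of 247 mean reads. Among the other 12 were the hotspots HTA1-ADK1, beside a histone H2A gene, at 0.42, ILV5-ATG33 at 0.69 and RPL19B-LSM2 at 0.18. The narrower hotspot with the lowest p, MIC19-DCV1, did not pass (-0.30, adjusted p = 0.136). ANB1-CYC1 passed on leaving out each replicate in turn, whereas 1 or 2 hotspots in all passed when any 1 *sae2*Δ replicate was dropped. Leaving out *sae2*Δ *ndt80*Δ replicates 1, 2, 3 and 4 gave 2, 32, 5 and 32, and leaving out both time-course libraries gave 36, 5 of the 15 among them. With the interquartile width 21 hotspots were called and 0 of these were among the 15.

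**Figure D4:**
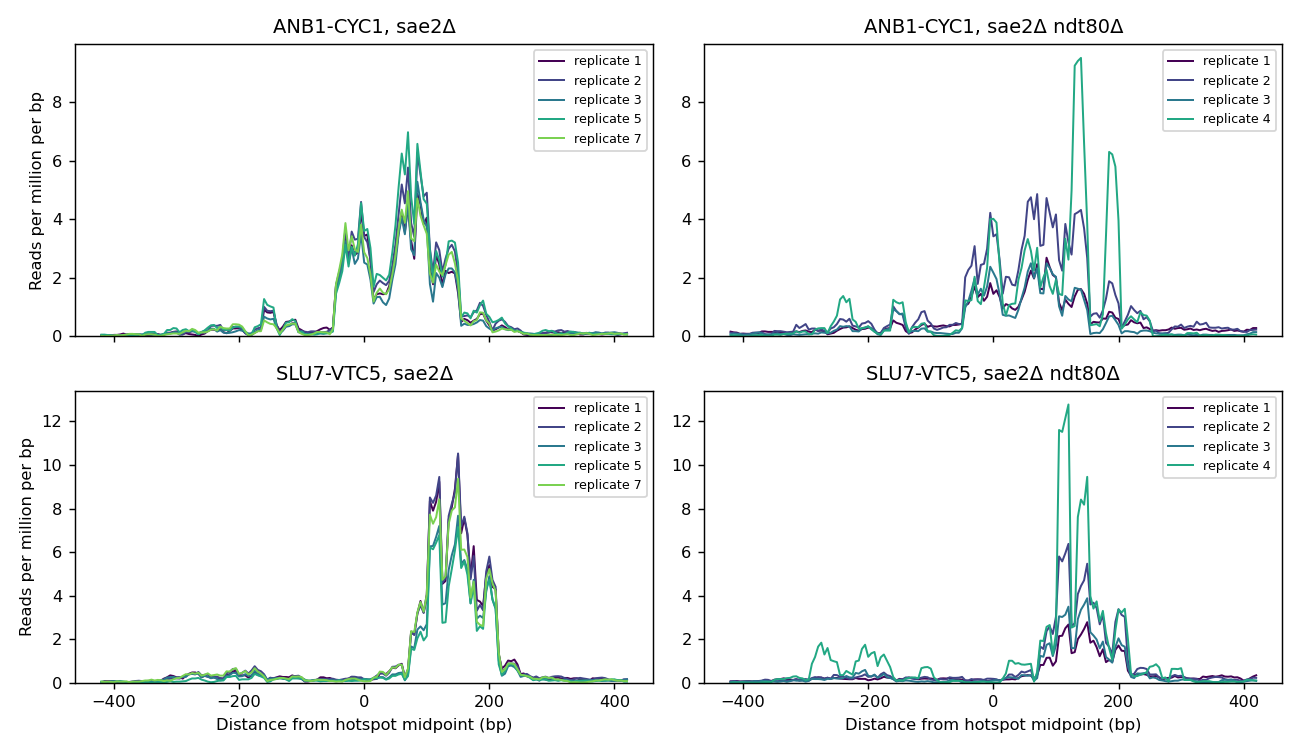
RPM per bp (y axis, both strands, smoothed over 21 bp) are plotted against the distance from the hotspot midpoint in bp (x axis) for each replicate of *sae2*Δ (left) and *sae2*Δ *ndt80*Δ (right) at the hotspots ANB1-CYC1 (top) and SLU7-VTC5 (bottom). In *sae2*Δ the maxima of the 5 replicates lie at about the same distances and differ in height, and in *sae2*Δ *ndt80*Δ replicate 4 has the highest peaks.

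Libraries of the matching strains without Tel1, which were not used to choose these hotspots, gave the same measures for *sae2*Δ *tel1*Δ (4 replicates) and *sae2*Δ *ndt80*Δ *tel1*Δ (5 replicates). Of the 9 hotspots with a larger offset, 9 also had a larger mean offset upon Ndt80 loss in these strains, where 84.0% of all 2265 hotspots did. In 5 every *sae2*Δ *ndt80*Δ *tel1*Δ replicate lay above every *sae2*Δ *tel1*Δ replicate, as in 10.6% of all hotspots. All 9 are long, and with Tel1 present the offset was larger at 83.6% of 621 hotspots of 400 bp or longer, against 60.6% of all. The shares without Tel1 were not split by length, so they are no matched base for these 9. Library series was not taken into account in these strains. Of the 15 that widened, 13 were wider there, against 61.4% of all 2417 hotspots, and 5 were wider without overlap, against 7.37% of all. At ANB1-CYC1 the width was 180 to 272 bp in *sae2*Δ *tel1*Δ (mean 226.8 ± 42.2, SD) and 229 to 303 bp in *sae2*Δ *ndt80*Δ *tel1*Δ (mean 263 ± 36.7, SD), so the groups overlapped and the difference did not pass the exact permutation test (p = 0.183).

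The strength of hotspots, in RPM, mostly could not be told apart between the genotypes. Of 3301 hotspots 2 (0.0606%) were called by edgeR's quasi-likelihood test, 1 higher and 1 lower (0.0303% each), and 297 had an unadjusted p under 0.05. Both are weak, and are named though they have fewer than 200 mean reads: a hotspot of 110 bp between the convergent genes YCK3 and DSE1 on chromosome V 406437-406546 rose by 2.04 on the log2 scale (SE 0.41, adjusted p = 0.0199), and one of 47 bp inside PRM1 on chromosome XIV 111862-111908 fell by 1.76 (SE 0.39, adjusted p = 0.0464). Among better covered hotspots none passed. Inside TOR2, a growth kinase, in the hotspot with the lowest p among those lower in *sae2*Δ *ndt80*Δ, the level was 145, 72.7, 73.9, 42.3 and 80.7 RPM in *sae2*Δ, against 28.5, 47.1, 27.3 and 16.8 in *sae2*Δ *ndt80*Δ (log2 ratio -1.47, adjusted p = 0.0992). The number called rose to 165 without the 2 time-course libraries, 157 of them lower, and leaving out single replicates gave 0 to 137, the lowest when *sae2*Δ *ndt80*Δ replicate 1 was dropped and 63, 13 and 137 when replicates 2 to 4 were. In the 2 settings with the most calls nearly all hotspots lay lower. The median log2 ratio was -0.45 without the time-course libraries, with 7.39% of hotspots above 0. It was -0.44 without replicate 4, with 4.91% above 0, beside -0.155 and 33.8% in the main test. Dropping *sae2*Δ replicates 1, 2, 3, 5 and 7 gave 7, 4, 3, 5 and 4.

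The 10 strongest hotspots, by the mean of both genotypes, had lower means in *sae2*Δ *ndt80*Δ, and none passed the test. Of all 3301 hotspots 33.8% had a log2 ratio above 0. The median log2 ratio was -0.31 in the 624 hotspots of 400 bp or longer, a length that all 10 exceed. Without *sae2*Δ *ndt80*Δ replicate 2, however, 5 of the 10 passed, all lower, where 63 of all 3301 hotspots passed, 62 of them lower. The median log2 ratio of all hotspots was -0.19 in that setting. The hotspot inside ATF2 was higher by TMM, by DESeq2, per hotspot read, and without *sae2*Δ *ndt80*Δ replicate 1 or 3 (log2 ratios up to 0.14), while the other 9 stayed lower in each setting run with these hotspots. The strongest of the 10 lay between AAC1, a mitochondrial ADP/ATP carrier, and FET3, an iron uptake oxidase, on chromosome XIII 387780-388996. Its level was 6466, 5724, 6479, 4363 and 7446 RPM in *sae2*Δ, against 1894, 4454, 3427 and 3757 in *sae2*Δ *ndt80*Δ (log2 ratio -0.85, SE 0.29, adjusted p = 0.388). Only replicate 2 of *sae2*Δ *ndt80*Δ reached the *sae2*Δ range, and in *sae2*Δ *ndt80*Δ alone 4 of the other 9 had higher means, up to 3990 RPM inside ATF2 beside 3383 here. The hotspot between SND1 and CCT6, a chaperonin subunit, had 5032 to 6139 RPM in *sae2*Δ, against 2109, 5681, 3148 and 3531 in *sae2*Δ *ndt80*Δ (log2 ratio -0.64, adjusted p = 0.520). The hotspot upstream of ERG25, a sterol synthesis enzyme, beside SPR3, a septin of sporulation, had 4469 to 6479 and 2120, 4972, 2511 and 4153 (log2 ratio -0.59, adjusted p = 0.546). The other 7, inside ATF2 and YBR209W, at YMR265C-RSN1, INO2-YDR124W, SRB2-NCP1 and LEU4-MET4, and at chromosome III 214497-216684, had log2 ratios of -0.78 to -0.12.

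The mean centroid offset of these 10 hotspots was larger in *sae2*Δ *ndt80*Δ at 9, the exception being the hotspot on chromosome III. It was larger at 60.6% of all 2330 hotspots and at 92.8% of the 83 of 900 bp or longer, a length that all 10 exceed, which the 10 are among, so 9 of 10 is near the share of long hotspots. At SPR3-ERG25 and inside ATF2 every *sae2*Δ *ndt80*Δ replicate lay above every *sae2*Δ replicate, which held for 5.45% of all hotspots and for 16.9% of these 83. At SPR3-ERG25 the offset was 42.1, 33.95, 4.74, -6.68 and 17.1 bp in *sae2*Δ, then 125.5, 45.3, 54.3 and 172 bp in *sae2*Δ *ndt80*Δ. The width there was 301 to 415 bp and then 561, 441, 539 and 742 bp, also without overlap. Such a larger width without overlap held for 8.17% of all 2424 hotspots and for 13.25% of these 83. At AAC1-FET3 the offset was 34.5, 28.04, -0.46, 0.60 and 22.6 bp against 88.4, 75.7, 29.4 and 68.3 bp, where replicate 3 fell within the *sae2*Δ range. None of these 10 was among the hotspots called for width or offset.

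The share of reads that fell in hotspots at all spread more in *sae2*Δ *ndt80*Δ than in *sae2*Δ. It was 69.5%, 79.0%, 68.7%, 73.4% and 73.5% in *sae2*Δ replicates 1, 2, 3, 5 and 7, and 35.8%, 73.5%, 46.7% and 84.7% in *sae2*Δ *ndt80*Δ replicates 1 to 4 and 8.67% in the *spo11-Y135F* library. The *sae2*Δ *ndt80*Δ replicates thus lay both below and above the range of *sae2*Δ (means 72.8% ± 4.06 and 60.2% ± 22.8, exact permutation p = 0.302, adjusted p = 0.571). The median log2 ratio of all hotspots was -0.155 per nuclear read and 0.12 per hotspot read, and no hotspot passed on the second scale (666 at an unadjusted p under 0.05). Within the hotspot signal, the strongest 10% of hotspots held 51.8% to 54.6% in *sae2*Δ, against 53.7%, 54.3%, 49.3% and 42.7% in *sae2*Δ *ndt80*Δ, so replicate 4 was spread over weaker hotspots more than the rest.

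Along the chromosomes, the fitted ratio was highest where there were no hotspots, and the high values there came from 2 replicates. In 5 kb tiles without a hotspot the median level was 109, 58.7, 114, 91.2 and 93.3 RPM in *sae2*Δ, against 255, 68.1, 231 and 47.8 in *sae2*Δ *ndt80*Δ. The *sae2*Δ *ndt80*Δ replicates with the highest values, 1 and 3, were those with the fewest reads in hotspots, and replicates 2 and 4 lay within or below *sae2*Δ. The median log2 ratio fell with the number of hotspots, from 0.64 in tiles with none to 0.32 with 1, 0.12 with 2 and 0.00 with 3 or more. It was 0.57 in the 124 tiles under 20 kb from a chromosome end, against 0.27 in all 2406 tiles. In the 64 tiles under 10 kb from a centromere it was 0.48. No tile of either set was called, and neither set was split by the number of hotspots. The share of hotspot signal under 10 kb from a centromere averaged 0.584% for *sae2*Δ, against 0.550% for *sae2*Δ *ndt80*Δ. Under 20 kb from an end the corresponding means were 0.620% and 0.732%. The replicate ranges of the genotypes overlapped at both positions.

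**Figure D5:**
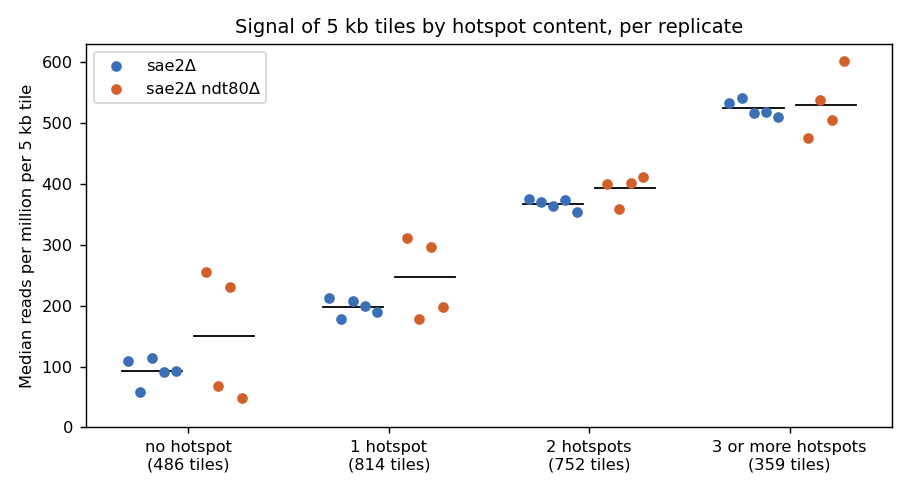
The median RPM of 5 kb tiles (y axis) is plotted by the number of hotspots a tile holds (x axis), with 1 point per replicate of *sae2*Δ (blue) and *sae2*Δ *ndt80*Δ (orange) and the group mean as a line. Without a hotspot the *sae2*Δ *ndt80*Δ replicates run from 47.8 to 255, and *sae2*Δ from 58.7 to 114.

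Of the 2406 tiles 8 (0.333%) were called by the same test, 7 higher (0.291%) and 1 lower (0.0416%) in *sae2*Δ *ndt80*Δ, and 331 had an unadjusted p under 0.05. All 8 held 1 or 2 hotspots, as did most tiles (814 held 1 and 752 held 2). The largest rise was at chromosome IV 510001-515000, which holds LYS14, a regulator of lysine synthesis, with 150, 158, 141, 144 and 173 RPM in *sae2*Δ, against 315, 249, 250 and 558 in *sae2*Δ *ndt80*Δ (log2 ratio 1.16, SE 0.21, adjusted p = 0.0139). Its 1 hotspot, LYS14-YDR034C-D, did not pass alone, with 59.0 to 106 RPM in *sae2*Δ, against 79.2, 171, 60.97 and 501 in *sae2*Δ *ndt80*Δ, so the gain lay in the hotspot in replicates 2 and 4 and largely outside it in replicates 1 and 3. The second was at chromosome IX 155001-160000, over COX5B, a cytochrome oxidase subunit, HPM1 and SEC24, with 159 to 221 RPM in *sae2*Δ, against 423, 371, 295 and 310 in *sae2*Δ *ndt80*Δ (log2 ratio 0.88, SE 0.16, adjusted p = 0.0139). The single fall was at chromosome VII 470001-475000, over PDR1, a regulator of drug resistance, ERG4 and SCL1, with 1354, 1233, 1321, 1072 and 1412 RPM in *sae2*Δ, against 586.6, 809.5, 865 and 706 in *sae2*Δ *ndt80*Δ (log2 ratio -0.79, SE 0.17, adjusted p = 0.0313). Its hotspot PDR1-ERG4 held most of these reads in every replicate but *sae2*Δ *ndt80*Δ replicate 1, with 926 to 1251 in *sae2*Δ, against 282, 639, 639 and 646 in *sae2*Δ *ndt80*Δ, and did not pass alone (log2 ratio -1.02, adjusted p = 0.388). Without both time-course libraries 53 tiles were called. Leaving out single replicates gave 1 to 425: dropping *sae2*Δ replicates 1, 2, 3, 5 and 7 left 3, 2, 3, 10 and 1, and dropping *sae2*Δ *ndt80*Δ replicates 1 to 4 left 1, 425, 19 and 49.

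Changes of neighbouring hotspots were most alike under 2 kb apart. The correlation of the log2 ratio of *sae2*Δ *ndt80*Δ to *sae2*Δ, per hotspot read, was 0.311 over 669 pairs under 2 kb apart, 0.13 at 10 to 20 kb, 0.0759 at 20 to 50 kb and 0.0266 at 100 to 200 kb. Each *sae2*Δ replicate set against the other 4 gave 0.211 to 0.392 under 2 kb, 0.0582 to 0.148 at 10 to 20 kb and 0.0324 to 0.136 at 20 to 50 kb, so a fall with distance was present within one genotype. Taken singly, *sae2*Δ *ndt80*Δ replicates 1 to 4 gave 0.483, 0.392, 0.236 and 0.336 under 2 kb. They gave 0.168, 0.199, 0.113 and 0.0377 at 10 to 20 kb, and 0.128, 0.143, 0.0692 and 0.00809 at 20 to 50 kb. Replicates 1 and 2 thus lay above *sae2*Δ at 10 to 20 kb. These pairs share libraries and are a description.

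By the genes around them, the hotspots between divergent genes held 48.2% ± 0.317 of the hotspot signal in *sae2*Δ, against 47.9% ± 0.199 in *sae2*Δ *ndt80*Δ (exact permutation p = 0.0873, adjusted p = 0.262). Those between tandem genes held 37.4% ± 0.406 and 38.4% ± 1.81, those inside a gene 13.1% ± 0.3598 and 12.5% ± 1.75, and those between convergent genes 1.18% ± 0.055 and 1.19% ± 0.0635, none of which passed (adjusted exact permutation p of 0.571, 0.857 and 0.944). Of the 16 chromosomes none changed its share of the signal after adjustment, and 4 had an unadjusted exact permutation p under 0.05. Chromosome VIII held 3.86%, 3.91%, 3.92%, 3.99% and 4.05% in *sae2*Δ, against 3.70%, 3.82%, 3.69% and 3.84% in *sae2*Δ *ndt80*Δ, groups that did not overlap (exact permutation p = 0.0159, adjusted p = 0.127). Chromosomes II, IX and XI had higher means in *sae2*Δ *ndt80*Δ, by 0.156, 0.127 and 0.247 percentage points (adjusted p of 0.127, 0.159 and 0.127).

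Promoters that depend on Ndt80 were examined as a list. Of 35 genes known to be induced by Ndt80, 18 had a hotspot within 500 bp upstream of the start codon, 17 hotspots in all. Of these 0 were called in either direction (0.0606% of all hotspots were), with 2 (11.8%) at an unadjusted p under 0.05 beside 9.0% of all hotspots, and their median log2 ratio was -0.16 beside -0.155 for all hotspots. The hotspots upstream of PES4 and SPR1 had the lowest ratios (-0.71 and -0.71), and SPR28, a sporulation septin, had the highest (0.33). At SPR28 only replicate 4 of *sae2*Δ *ndt80*Δ, with 31.8 RPM, lay above the *sae2*Δ range of 11.5 to 17.3. Of 29 early meiotic genes 27 were matched and 16 had such a hotspot, 15 hotspots in all, of which 0 were called and 1 (6.67%) had an unadjusted p under 0.05. Their median was 0.13, the ratio of the hotspot upstream of SAE3. That hotspot had 51.05, 85.2, 57.1 and 180.5 RPM in *sae2*Δ *ndt80*Δ replicates 1 to 4, against 77.8 to 98.0 in *sae2*Δ, so replicate 4 alone lay above *sae2*Δ. The hotspot between HOP1, a chromosome axis protein, and SPO22 had the lowest ratio, with means of 54.5 RPM in *sae2*Δ, against 25.7 in *sae2*Δ *ndt80*Δ (log2 ratio -1.08, SE 0.35). That of MAM1, which co-orients sister kinetochores, had the highest, with 60.01 and 89.5 (log2 ratio 0.57, SE 0.36). At MAM1 *sae2*Δ *ndt80*Δ replicates 1 to 4 had 37.5, 61.5, 54.4 and 204.6 RPM, against 47.35 to 72.0 in *sae2*Δ. Only replicate 4 thus lay above *sae2*Δ there.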

How the data were processed

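CC-seq read ends were counted per base and strand in *Saccharomyces cerevisiae* SK1. The deposited values are raw counts of Watson and Crick reads: the authors aligned reads with Bowtie2 through TermMapper to R64 with the *HIS4*::*LEU2* and *leu2*::*hisG* inserts, which shift chromosome III, so genes there were not named. The *spo11-Y135F* table holds 2 stacked tables, and the first, of read 1 alone, was used. Hotspots were called with the settings of the study's methods (smoothed over 201 bp, cut-off 0.193 RPM, gaps under 200 bp merged), but from the averages of these 2 genotypes rather than the study's pool of strains with and without Tel1, outside chromosome XII 451640-467844. Background per bp came from 49 genes over 5.5 kb. Genes came from RefSeq R64.

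Counts in hotspots and 5 kb tiles were tested with edgeR 4.0.16 (quasi-likelihood, library size the nuclear reads outside the ribosomal DNA), log2 widths and offsets with limma 3.58.1, in R 4.3.3, with Benjamini-Hochberg adjustment at 0.05. Single values were tested by exact permutation (5 against 4, smallest p 0.00794). Fits and measures were tested on simulated data: of 100 hotspots changed 2-fold in strength among 3301, 43% were recovered, and 99% of those changed 4-fold. Named were the 10 strongest hotspots, per test the 3 largest differences that passed in each direction among hotspots of at least 200 mean reads (or, where fewer passed, also the lowest p), and the 2 largest tile changes per direction. The hotspot of lowest p among those of higher strength is not reported here. Members and lists were chosen with earlier results of these data known, and the split by hotspot length, the *tel1*Δ check and the parts of hotspots after seeing the values. Alternatives were leaving out replicates, both time-course libraries, every library as a replicate, a replicate block, TMM, DESeq2 1.42.0, no filter, other library sizes, cut-offs, tiles, widths, depths and background subtraction.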

Additional observations from a re-analysis of the deposited data

Results flagged for a closer look

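In 56 groups of 4 or 5 replicate values, 3 held a replicate whose gap to the next exceeded Dixon's 95% limit, where chance flags about 1 in 20 groups. Hotspots between convergent genes held 1.28% of the signal in *sae2*Δ replicate 5, against 1.17% in the next. They held 1.09% in *sae2*Δ *ndt80*Δ replicate 4, against 1.21% in the next. Chromosome X held 6.04% in *sae2*Δ *ndt80*Δ replicate 4, against 6.58% in the next.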

How the results depend on the processing

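Leaving out each replicate in turn gave 0 to 137 hotspots called for strength, 1 to 425 tiles, 0 to 7 hotspots for strand balance, 1 to 32 for width and 0 to 64 for offset. Without both time-course libraries the counts were 165, 53, 5, 36 and 98, in the same order. With each library as its own replicate 1 hotspot was called for strength, 44 tiles, 30 for width and 31 for offset. The pairing difference then passed at -0.09945 (exact permutation, adjusted p = 0.0429). That setting counts libraries 7B and 7C of *sae2*Δ, summed elsewhere, as separate replicates. The added replicate also lowers the smallest p that the permutation test can give, so this pass is not comparable with the main test. With the replicate block, over numbers that did not pair the samples (same-number correlations -0.274, -0.0445 and 0.259), the counts were 62 for strength, 47 tiles, 42 for strand, 0 for width and 0 for offset. TMM called 0 for strength and 1 tile, and moved the median log2 ratio of strength from -0.155 to 0.01 and of tiles from 0.27 to 0.13. DESeq2 called 132, 43 and 10 for strength, tiles and strand. Scaling to the total in hotspots gave 0 for strength, a fit over all 18 replicates 0 for strength and 0 tiles, and 20 kb tiles 3. At least 1000 mean reads gave 9 for width and 29 for offset, bounds widened by 200 bp 25 for width, thinning 4 and no background subtraction 2 for offset. The centroid offset difference ran from -1.57 to 3.137 bp on leaving out replicates. The strand imbalance difference ran from -0.01159 to 0.006134 on leaving out replicates, and turned to 0.00499 in hotspots of at least 1000 mean reads and to 0.007543 after background subtraction, an alternative chosen after seeing the data. The cause was not tested, except that settings with fewer samples or hotspots test fewer of them. The class and chromosome shares called 0 in every setting run. Counts of calls thus rest on which of 5 and 4 replicates are used. The 8 hotspots and 3 tiles that passed and were named by the rule above kept their sign in every setting run on them. They were chosen from the same libraries, so this is no independent support. The hotspots passed in from 4 of 14 alternative settings (YNL115C-RPC19) to 14 of 16 (ANB1-CYC1), and the tiles in 9 to 12 of 16. In simulated data 43% of 2-fold strength changes and 44% of offsets of 20 bp were recovered. Changes of that size could thus be missed at the spread simulated for 5 and 4 replicates.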
